A study of Sus scrofa with 10 samples.

Results

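The genes of the inhibin, activin and follistatin system were described in ovaries of 10 gilts. The 5 genes INHA, INHBA, INHBB, FST and FSTL3 were chosen by symbol, and each was found at 1 of the 19972 protein-coding loci among the 43499 gene loci of the table. All 5 had a mean FPKM (fragments per kilobase of a locus, scaled to the size of the library) of at least 0.1 and were among the 15170 protein-coding loci tested. Every gilt had eaten altrenogest, a progestin used to synchronise the cycle, at a daily 20 mg over 18 days beginning at 210 days of age, with 2 days without it before treatment. The 5 gilts of the rpFSH treatment group then received 1000 IU each of recombinant pig follicle-stimulating hormone (rpFSH), produced in CHO cells, a hamster cell line. The 5 gilts of the control group received saline and are labelled untreated. The ovaries were sampled at 234 days once the follicles on their surface had been removed, so the RNA came from the remaining tissue with all its cell types. Each pig gave 1 library.

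Inhibins and activins are dimers built from shared subunits. INHA encodes the alpha subunit, which joins a beta subunit encoded by INHBA or INHBB to form inhibin A or inhibin B, whereas beta subunits joined to each other form the activins. Granulosa cells of growing follicles are the main ovarian source, and inhibin lowers the release of FSH from the pituitary while activin raises it. Follistatin (FST) and follistatin-like 3 (FSTL3) are secreted proteins that bind activins and keep them from their receptors. Activin signals through type II and type I receptors to SMAD2 and SMAD3, and the coreceptor betaglycan (TGFBR3) helps inhibin to block this.

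On Sscrofa11.1, INHA lay on chromosome 15 from 121582044 to 121586845 (plus strand) and INHBB on the same chromosome from 30996208 to 31003726 (minus strand). FST lay on chromosome 16 from 32805773 to 32812725 (plus strand) and FSTL3 on chromosome 2 from 77656663 to 77662613 (minus strand). The locus that holds INHBA carries the names GLI3 and INHBA together, on chromosome 18 from 52403160 to 52905213 (plus strand), and spans 502054 bases. GLI3, a transcription factor of hedgehog signalling, is therefore counted with INHBA, and the locus is called the GLI3-INHBA locus here. The RefSeq gene table of the same build gives GLI3, typed protein-coding, on chromosome 18 from 52403463 to 52697906. The merged locus runs on past that end. RefSeq lists INHBA on chromosome 12 (53115379 to 53117128), typed other and not protein-coding. The annotations thus differ on where INHBA lies, and how many of the reads of the merged locus come from INHBA is unknown. The length implied by its counts and FPKM was 64100 bases, against 3807 to 5950 bases for the other 4 genes, so its FPKM is neither the level of INHBA nor on the same footing as theirs. Merged loci made up 5.88% (1174) of the protein-coding loci.

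Library totals ran from 64873797 to 75114003 counts, and a floor of 3 counts corresponded to between 0.0399 and 0.0462 CPM. The lowest count of any of the 5 genes in any pig was 514, so counting error was small beside the differences between pigs. Marker genes of several cell types differed strongly among the libraries. The summed FPKM of 5 luteal markers was 2871 in control replicate 2, 1614 in rpFSH replicate 1 and 446 in rpFSH replicate 4, against 12.1 to 59.9 in the other 7 pigs, although OXT, the oxytocin gene expressed by luteal cells, was near 0 in every pig. Oviduct-type epithelium markers (7 found of 8) summed to 17.8, 63.8, 11.7, 10.6 and 118 in control replicates 1 to 5 and to 7.88, 5.86, 6.06, 9.47 and 7.47 in rpFSH replicates 1 to 5. By this sum every control was above every rpFSH pig, and control replicates 2 and 5 were far above the rest. By the mean of log2 (FPKM + 1) over the same markers the groups overlapped, with control replicate 3 at 1.06 and rpFSH replicate 4 at 1.10. Smooth muscle markers were highest in control replicate 5 (1789, against 65.3 to 484). The granulosa marker level, the mean of log2 (FPKM + 1) over the 7 genes found of 8, was 2.69, 1.59, 2.27, 2.90 and 1.75 in control replicates 1 to 5 and 2.06, 2.89, 1.85, 2.00 and 2.56 in rpFSH replicates 1 to 5. In such bulk tissue, fewer cells of a type and less RNA per cell cannot be told apart.

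INHA, the alpha subunit of both inhibins, had FPKM values of 27.6, 1.34, 13.4, 66.1 and 4.65 in control replicates 1 to 5. The rpFSH replicates 1 to 5 had 68.7, 66.4, 3.27, 19.3 and 21.3. The groups overlapped over nearly their whole ranges, with 1 control pig nearly as high as the highest rpFSH pigs and 1 rpFSH pig below all but 1 of the controls. Mean FPKM was 22.6 ± 26.3 for the controls and 35.8 ± 29.8 for the rpFSH pigs (SD, n = 5 each). The log2 difference (rpFSH minus control) of INHA was 0.73, with a 95% interval from -1.43 to 2.88 (edgeR quasi-likelihood test with Benjamini-Hochberg adjustment, adjusted p = 1.00). A two-sided exact permutation of log2 (FPKM + 1) over the pigs gave p = 0.413. Differences well above 1 log2 unit in either direction thus remained within the interval. Without rpFSH replicate 1 the INHA difference was 0.38, and without control replicate 4 it was 1.67. It was 0.090 without control replicates 2 and 5, the controls with the highest oviduct-type markers.

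INHBB, the beta subunit of inhibin B and activin B, had FPKM values of 53.3, 1.57, 26.5, 79.1 and 5.58 in control replicates 1 to 5 and 10.6, 35.9, 1.68, 19.1 and 22.1 in rpFSH replicates 1 to 5. The 2 highest values were in controls, and the lowest value of each group was nearly the same. The INHBB means were 33.2 ± 32.9 for the controls and 17.9 ± 12.9 for the rpFSH pigs (SD, n = 5 each). The log2 difference was -0.82, with a 95% interval from -2.93 to 1.30 (edgeR, adjusted p = 1.00, exact permutation p = 0.738), and lay within the spread between pigs. The INHBB difference was -0.21 without control replicate 4, -1.25 without rpFSH replicate 2 and -1.48 without the 2 controls with the highest oviduct-type markers.

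The GLI3-INHBA locus, named in the table for the beta subunit gene of inhibin A and activin A, had FPKM values of 5.44, 1.42, 3.98, 11.9 and 3.93 in control replicates 1 to 5 and 3.44, 11.7, 3.31, 5.96 and 4.22 in rpFSH replicates 1 to 5. Its group means were 5.33 ± 3.93 and 5.73 ± 3.50 (SD, n = 5 each), and the groups overlapped. The log2 difference of the GLI3-INHBA locus was 0.19 (95% interval from -0.99 to 1.36, edgeR, adjusted p = 1.00, exact permutation p = 0.786). Its sign turned without control replicate 2 (-0.045) or rpFSH replicate 2 (-0.27).

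FST, which encodes the activin-binding protein follistatin, had FPKM values of 36.6, 17.7, 25.7, 59.8 and 9.79 in control replicates 1 to 5. In rpFSH replicates 1 to 5 they were 21.5, 48.1, 4.78, 10.4 and 27.9, and both groups held high and low pigs. The FST means were 29.9 ± 19.4 and 22.5 ± 16.9 (SD, n = 5 each). The log2 difference was -0.33, with a 95% interval from -1.69 to 1.02 (edgeR, adjusted p = 1.00, exact permutation p = 0.476), and its sign turned without control replicate 4 (0.074).

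FSTL3, which encodes the related binding protein, had FPKM values of 5.15, 4.08, 5.05, 5.14 and 9.01 in control replicates 1 to 5 and 23.7, 4.89, 6.15, 7.29 and 10.6 in rpFSH replicates 1 to 5. Apart from control replicate 5 the controls lay close together, and rpFSH replicate 2 lay among them, so the groups overlapped. Its means were 5.68 ± 1.91 for the controls and 10.5 ± 7.66 for the rpFSH pigs (SD, n = 5 each). FSTL3 was the 1 gene of the 5 with an unadjusted P under 0.05 in edgeR, at a log2 difference of 0.95 ± 0.41 (SE, 95% interval from 0.042 to 1.85, adjusted p = 1.00). The exact permutation of its level gave p = 0.167. Of all 15170 loci tested, 722 (4.76%) had such a P, 1.54% higher and 3.22% lower in the rpFSH treatment group. No locus passed the adjusted threshold in edgeR (0 of 15170, smallest adjusted p = 0.992) or limma (0, with 460 or 3.03% at an unadjusted P under 0.05). DESeq2 gave 86 (0.567%), with 917 (6.04%) at an unadjusted P under 0.05, and FSTL3 was among the latter. Without rpFSH replicate 1, which had high luteal markers, the FSTL3 difference was 0.43, and without the 3 pigs with high luteal markers it was 0.34, both with an unadjusted P above 0.05. It was also above 0.05 without any 1 of control replicates 1, 2, 3 and 4 or rpFSH replicate 5, with FSTL3 differences between 0.85 and 0.94. The part of luteal tissue in the FSTL3 difference was not tested.

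**Figure D1:**
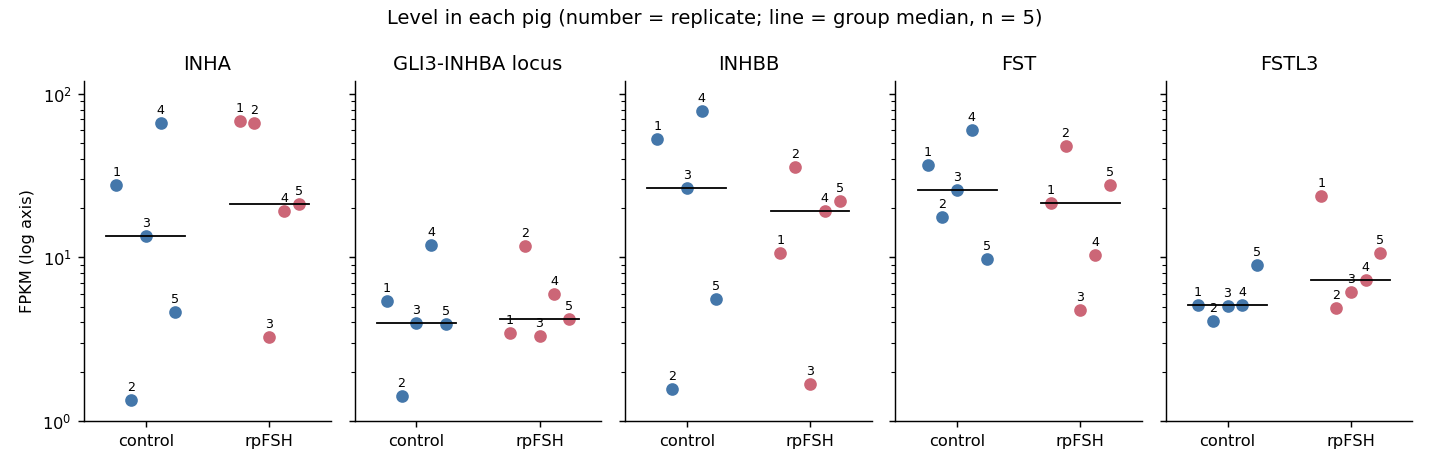
FPKM (log axis) of each gene or locus in the 5 control and 5 rpFSH pigs, with the replicate number above each point and a line at the group median. The groups overlap in every panel, INHA and INHBB range from 1.34 to 68.7 and from 1.57 to 79.1, and FSTL3 lies between 4.08 and 5.15 in 4 of the 5 controls and reaches 23.7 in rpFSH replicate 1.

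The spread between pigs was wider than that of most genes for INHA and INHBB. The highest pig exceeded the lowest 51.3-fold for INHA and 50.4-fold for INHBB, against 12.5-fold for FST, 8.36-fold for the GLI3-INHBA locus and 5.81-fold for FSTL3. On the log2 CPM scale the SD over the 10 pigs was 1.98 for INHA and 1.96 for INHBB, above that of 97.2 and 97.1% of the tested loci. The SD was 1.12 for FST (above 87.4%), 0.91 for the GLI3-INHBA locus (above 81%) and 0.76 for FSTL3 (above 74.4%). Control replicate 2 had the lowest INHA, GLI3-INHBA, INHBB and FSTL3 values of all pigs, and control replicate 4 the highest GLI3-INHBA, INHBB and FST values. rpFSH replicate 1 had the highest INHA and FSTL3 values, and rpFSH replicate 3 the lowest FST value.

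The order of the levels was read within each pig from log2 (FPKM + 1). FST exceeded FSTL3 by a mean of 1.44 ± 1.35 (SD) over the 10 pigs and was higher in 8 of them (two-sided exact sign-flip permutation test, p = 0.0137, adjusted over 10 pairs 0.0342). The adjusted p was 0.0625 or 0.0684 without any 1 of control replicates 1 to 4 and rpFSH replicates 2, 4 and 5. INHA, INHBB and FST did not differ beyond their spread, with INHA minus INHBB at 0.16 (adjusted p = 0.695), INHA minus FST at -0.30 (adjusted p = 0.571) and INHBB minus FST at -0.46 (adjusted p = 0.256, same exact test). FSTL3 was lower than INHA by 1.15 (adjusted p = 0.117) and lower than INHBB by 0.99 (adjusted p = 0.225) on average, which the same exact test did not separate. The GLI3-INHBA locus was left out of the order because its length covers both genes. Its pairs were still among the 10 of the adjustment. Those with FST, INHA and INHBB had smaller exact sign-flip p (0.00195, 0.00781 and 0.00977). They lowered the adjusted p of FST and FSTL3, which is under 0.05 only with the pairs of this locus in the adjustment.

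The balance between the alpha subunit and the beta B subunit, whose products meet in inhibin B, was followed by the ratio of INHA FPKM to INHBB FPKM within a pig, in which library scaling cancels. This ratio was 0.517, 0.854, 0.507, 0.835 and 0.833 in control replicates 1 to 5. It was 6.47, 1.85, 1.95, 1.01 and 0.965 in rpFSH replicates 1 to 5. Every rpFSH pig was above every control pig, and rpFSH replicates 4 and 5 were close to the highest controls. The 95% counting intervals of control replicate 2 (0.761 to 0.957) and rpFSH replicate 5 (0.937 to 0.995), which cover counting error only, overlapped. On the log2 scale the ratio was -0.54 ± 0.39 for the controls and 0.90 ± 1.11 for the rpFSH pigs (SD, n = 5 each), a difference of 1.44. The two-sided exact permutation p was 0.00794, the smallest that the 252 assignments of 5 against 5 pigs allow.

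The INHA to INHBB ratio was singled out of the 10 ratios between the 5 genes after their values had been seen, so its p describes this ratio and is not independent evidence. In the other 9 ratios the groups overlapped. The ratio of INHA to FST had a larger mean difference (1.62 on the log2 scale, exact permutation p = 0.0556), and the remaining 8 had exact permutation p between 0.183 and 0.865. As a background, the ratio to INHBB was taken for each of the 14180 tested loci with counts in every pig, and the groups did not overlap for 2 of them (0.0141%), INHA being 1. The ratio of INHA to each of these loci separated the groups for 1 (0.00705%), which was INHBB, so both shares count the same pair. INHA and INHBB varied more between pigs than 97.2 and 97.1% of the tested loci, and each overlapped between the groups. A ratio to a steadier locus carries mostly their own spread and tends to overlap. The low shares therefore do not measure how rare the INHA to INHBB result is. For single levels the groups did not overlap at 95 loci (0.626%), none of which was among the 5 genes. Without rpFSH replicate 1 the difference in the INHA to INHBB ratio was 0.99, without the 3 pigs with high luteal markers 1.21, and without the 2 controls with high oviduct-type markers 1.63 (exact permutation p = 0.00794, 0.0286 and 0.0357). Leaving out any 1 control gave differences between 1.33 and 1.52 with exact permutation p between 0.0397 and 0.0476, and leaving out any 1 of rpFSH replicates 2 to 5 gave between 1.42 and 1.68 (exact permutation p = 0.00794). Groups that do not overlap cannot come to overlap when pigs are removed, so these removals show the size of the difference only. Fewer pigs allow fewer assignments, so exact permutation p from different numbers of pigs are not comparable. Removal of any 1 pig leaves the same number of assignments, and the exact permutation p was higher without a control than without an rpFSH pig. The oviduct-type marker sums, like the ratio, did not overlap between the groups (10.6 to 118 in controls and 5.86 to 9.47 in rpFSH pigs), and of the 7 markers MAL2 alone did not overlap (3.93 to 14.0 and 0.678 to 3.24 FPKM). The mean of log2 (FPKM + 1) over the 7 markers did overlap (1.06 in control replicate 3 and 1.10 in rpFSH replicate 4). Their part in the ratio was not tested beyond the removal of those 2 controls. Neither INHA nor INHBB alone passed its own test, so the ratio does not say which of them differed.

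**Figure D2:**
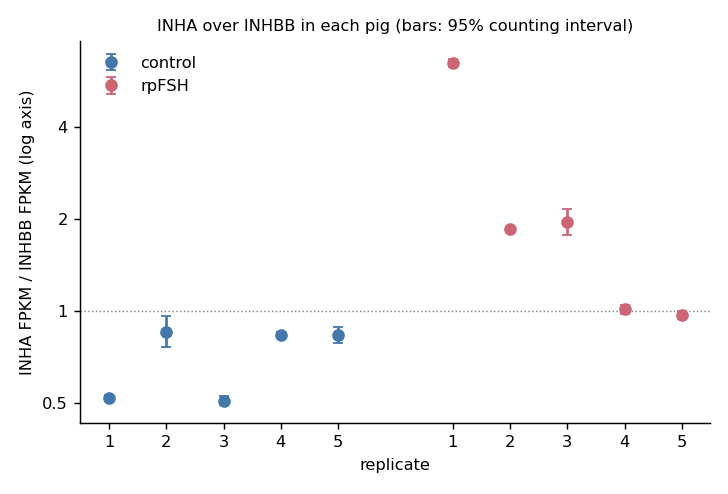
Ratio of INHA FPKM to INHBB FPKM (log axis) in each control and rpFSH replicate, with bars for the 95% counting interval and a dotted line at equal levels. Control pigs lie between 0.507 and 0.854 and rpFSH pigs between 0.965 and 6.47, with rpFSH replicate 1 well above the rest.

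Across the 10 pigs the subunit genes and FST moved together, while FSTL3 did not follow them. Pearson's r of log2 (FPKM + 1) was 0.824 for INHA and INHBB (permutation test, adjusted p = 0.0123 over 15 relations), 0.808 for INHBB and FST (0.0123), 0.808 for INHBB and the GLI3-INHBA locus (0.0123), 0.766 for INHA and the GLI3-INHBA locus (0.0179) and 0.712 for INHA and FST (0.0355). The GLI3-INHBA locus and FST had r of 0.593 (adjusted permutation p = 0.103), and the 4 relations of FSTL3 had r between -0.18 and 0.32. By Spearman's rho, 2 of these relations passed, INHBB with FST and INHBB with the GLI3-INHBA locus (both 0.879, adjusted permutation p = 0.00656), and INHA with INHBB had 0.673 (0.0644). Without the 2 pigs farthest from the median of the first gene, none of the 10 relations passed after adjustment with 8 pigs. The r was then 0.844 for INHBB with FST, 0.721 for INHA with FST and 0.771 for INHBB with the GLI3-INHBA locus, close to the values over all pigs, whereas it fell to 0.567 for INHA with INHBB and for INHA with the GLI3-INHBA locus. Without rpFSH replicate 1, INHA and INHBB had r of 0.942. Within the groups, r of INHA and INHBB was 0.985 among controls and 0.771 among rpFSH pigs, and that of INHBB and FST was 0.839 and 0.854, with 5 pigs each and no test.

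The granulosa marker level, from FSHR (the FSH receptor), CYP19A1 (aromatase), AMH and other genes outside the 5, moved with 4 of them. Its r was 0.901 with INHBB (rho 0.952, adjusted permutation p = 0.0057 for r), 0.843 with FST (rho 0.915, 0.0123), 0.834 with the GLI3-INHBA locus (rho 0.83, 0.0105) and 0.799 with INHA (rho 0.77, 0.0144). With FSTL3 it was -0.18 (adjusted permutation p = 0.700). Without the 2 pigs farthest from the median marker level, none of the 5 passed after adjustment with 8 pigs, and r was 0.882 for INHBB, 0.713 for FST, 0.677 for INHA and 0.633 for the GLI3-INHBA locus. Within the control group, r of the granulosa level was 0.985 with INHA and 0.982 with INHBB, and within the rpFSH treatment group 0.583 and 0.784 (5 pigs each). The genes of the granulosa list did not all vary alike, and they were not correlated singly. GATM was highest in rpFSH replicate 3 (4.60 FPKM) and lowest in rpFSH replicate 2 (0.856), where SERPINE2 was lowest (7.48) and highest (90.9). rpFSH replicate 1 had the highest INHA level, by a small margin, at a granulosa level of 2.06, and without it r with INHA was 0.942. This pig also had high luteal markers, and their part in its INHA value was not tested. The theca marker level, formed in the same way, was lowest in control replicate 2 (1.56) and rpFSH replicate 3 (1.34), against 3.62 to 6.46 elsewhere. These 2 pigs also had the lowest INHBB. No list but the granulosa one was correlated with the 5 genes, so the relation cannot be called particular to granulosa markers.

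**Figure D3:**
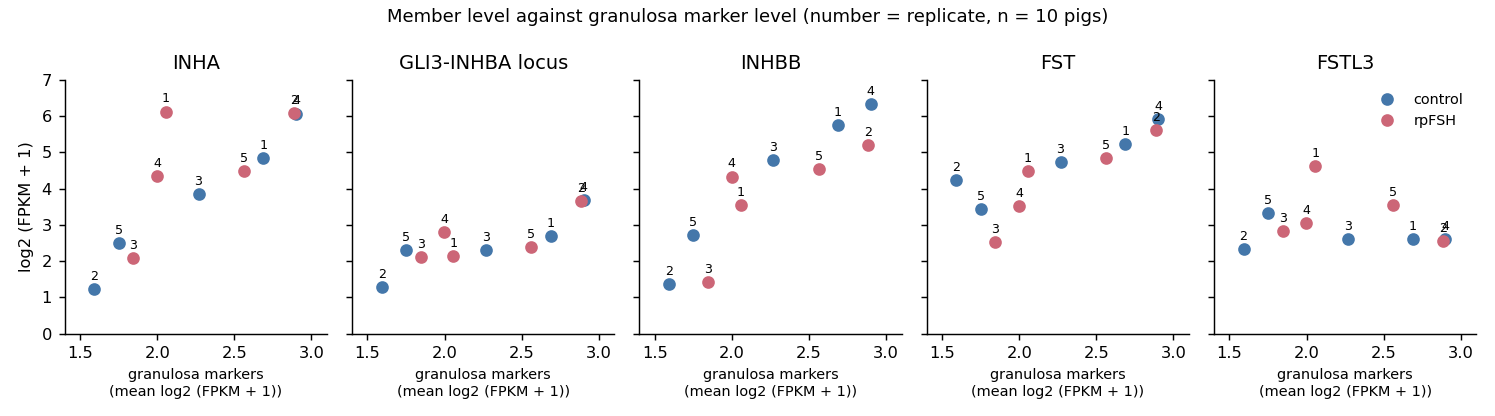
Level of each gene or locus, as log2 (FPKM + 1), against the granulosa marker level (mean log2 (FPKM + 1) over 7 genes), 1 point a pig with its replicate number. INHBB and FST rise with the marker level (r 0.901 and 0.843), rpFSH replicate 1 has the highest INHA level, by a small margin, at a granulosa level of 2.06, and FSTL3 shows no such relation (r -0.18).

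Of 31 other genes of the pathway that were listed, all had a locus and 26 were tested. An unadjusted P under 0.05 was found for 2 (7.69%, against 4.76% of all tested loci), 1 higher and 1 lower, and for 0 after adjustment (edgeR quasi-likelihood test). The log2 difference was above 0 in 8 and below 0 in 18, with a median of -0.037, against -0.0081 over all tested loci and 0.19 over the 5 genes. The groups overlapped for all 26. INHBC, ACVR1C and FSTL5 were near 0 in nearly every pig and were not tested, and FOXL2 was not because of its type in the table.

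Among the receptors, ACVR1B, the type I receptor that activin A uses, was higher in the rpFSH treatment group by its unadjusted P. Its FPKM values were 2.31, 3.02, 1.76, 2.17 and 2.41 in control replicates 1 to 5 and 3.75, 2.00, 2.88, 2.86 and 6.08 in rpFSH replicates 1 to 5. In 3 rpFSH pigs the value lay within the range of the controls, and rpFSH replicate 5 stood above all others. The log2 difference of ACVR1B was 0.66 ± 0.27 (SE, edgeR, adjusted p = 1.00, exact permutation p = 0.111). Without rpFSH replicate 5 it was 0.37, with an unadjusted P above 0.05. The P was also above 0.05 without control replicate 1, 3, 4 or 5 or rpFSH replicate 1, with differences between 0.58 and 0.67. The type II receptor genes had mean FPKM of 3.38 ± 0.29 and 2.89 ± 0.27 for ACVR2A and 3.19 ± 0.92 and 2.90 ± 0.92 for ACVR2B (control and rpFSH, SD, n = 5 each). ACVR1 had 4.34 ± 0.72 and 4.81 ± 1.08, and the inhibin coreceptor gene TGFBR3 had 6.05 ± 2.19 and 5.42 ± 2.21. None of these 4 passed the test in edgeR. The log2 difference was -0.085 for TGFBR3 (95% interval from -0.83 to 0.66) and -0.15 for ACVR2A (from -0.42 to 0.12), and the exact permutation of the ACVR2A level gave p = 0.0317, 1 of 31 such tests on single genes and not adjusted.

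Of the SMADs and their regulators none passed the test. The SMAD4 locus, which is merged with ELAC1, had the highest FPKM (12.8 ± 2.90 and 12.0 ± 1.19) and SMAD7, an inhibitor of the pathway, the lowest (1.31 ± 0.33 and 1.23 ± 0.51, control and rpFSH, SD, n = 5 each). An order by FPKM depends on the length used for each locus. SMAD2 had more counts than SMAD4 in every pig (76683 against 22733 in control replicate 1). SMAD3, which carries the activin signal, had a log2 difference of -0.020 with a 95% interval from -0.27 to 0.22, whereas that of SMAD2 went from -1.09 to 1.00.

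TDGF1, which encodes the coreceptor Cripto that can block activin, was the pathway gene lower in the rpFSH treatment group by its unadjusted P. It had 0, 56, 1, 6 and 42 counts in control replicates 1 to 5 and 0, 1, 6, 0 and 0 in rpFSH replicates 1 to 5. Only control replicates 2 and 5 had more than 6 counts, and these are the 2 pigs with high oviduct-type markers. The fitted log2 difference of TDGF1 was -3.60 ± 1.51 (SE, edgeR, adjusted p = 1.00, exact permutation p = 0.238), and -0.54 without those 2 controls. Leaving out any 1 of control replicates 2 and 5 and rpFSH replicates 1, 2, 4 and 5 also took its P above 0.05, with differences between -3.48 and -2.81. The part of oviduct-type tissue in this difference was not tested. FSTL1, a secreted glycoprotein of the follistatin family, had by far the highest FPKM among the antagonists and coreceptors (97.0 ± 20.0 and 117 ± 40.0, SD, n = 5 each), with a log2 difference of 0.35 (95% interval from -0.22 to 0.92).

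The convertases, proteases that cut the precursors of such ligands, did not pass the test either. FURIN had 5.75 ± 2.31 and 5.36 ± 0.21 FPKM and PCSK6 2.76 ± 2.99 and 1.81 ± 0.49 (control and rpFSH, SD, n = 5 each). PCSK5 had a log2 difference of 0.73 (95% interval from -0.037 to 1.49, exact permutation p = 0.175). Of the genes taken as readouts of activin and FSH in granulosa cells, the gap junction gene GJA1 had the highest FPKM (36.8 ± 16.5 and 36.8 ± 24.3) and CYP19A1 the lowest (2.25 ± 2.18 and 2.52 ± 2.04). This order also depends on the lengths used. By counts, CYP19A1 was below GJA1 in every pig but rpFSH replicate 4 (7553 against 6670). The log2 difference of CYP19A1 was 0.24 with a 95% interval from -1.90 to 2.39, and that of FSHR was -0.35, from -1.83 to 1.13.

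**Figure D4:**
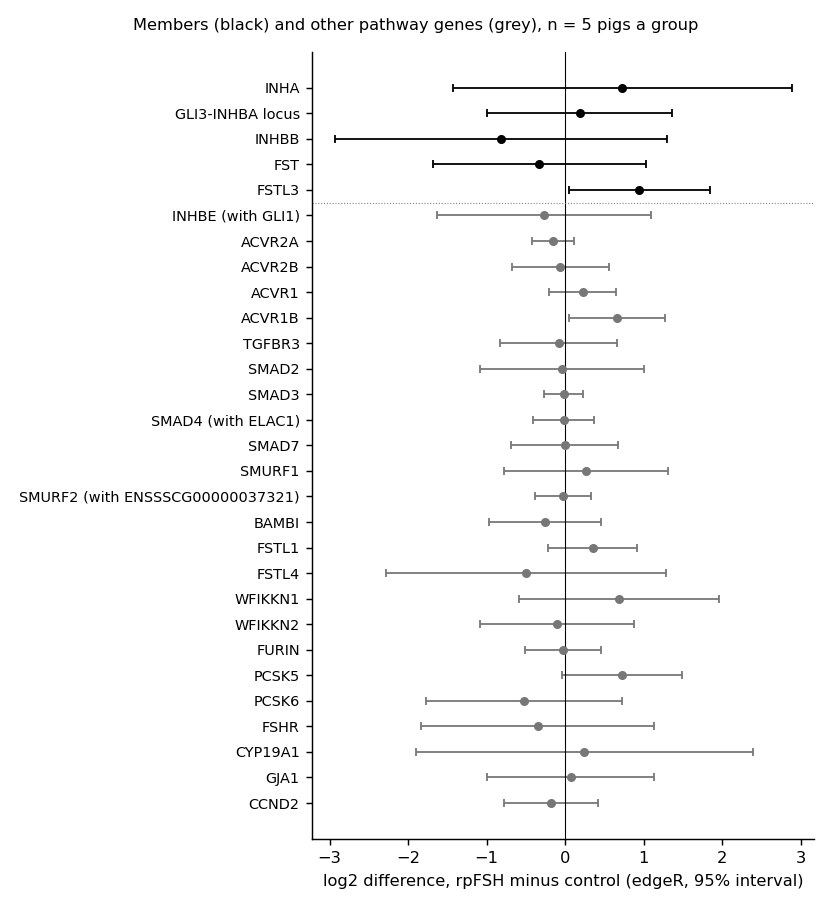
Log2 difference (rpFSH minus control) with its 95% interval from the edgeR fit, for the 5 genes or loci (black) and for 24 of the 26 tested pathway genes (grey), TDGF1 and GREM1 being left out because their intervals are much wider. FSTL3 (0.95) and ACVR1B (0.66) have intervals just above 0, and the intervals of INHA and INHBB reach from below -1 to above 1.

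The surroundings of the 5 genes were read from the same table, within 10000 bases. OBSL1, on the minus strand, began 172 bases from the start of INHA on the plus strand, so they run away from each other. OBSL1 varied with INHA over the pigs (r = 0.925). An unannotated locus that also carries the name INHBB lay 310 bases from INHBB, with no strand given, a highest FPKM of 1.84 and r of 0.925. Its reads added to INHBB left the difference in the INHA to INHBB ratio at 1.41. PRSS57 lay 650 bases from FSTL3 (r = 0.331), the GLI3-INHBA locus had 15 neighbours of which 11 overlapped it (r between -0.039 and 0.70), and FST had none. Whether reads were counted by strand is not given in the sources used here, so reads of overlapping loci may not be told apart.

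The tested loci whose log2 (FPKM + 1) followed each gene most closely over the 10 pigs are given as a description. For INHA these were SLC4A3 (r = 0.962), an anion exchanger gene 42315 bases from it, ENSSSCG00000036727 (0.959) and ENSSSCG00000012503 (0.949). For INHBB they were SHCBP1 (0.965), TRIB2 (0.959) and the histone gene HIST1H3E (0.959). For FST they were RGS7 (0.969), RPRD1B (0.954) and TRIM33 (0.945), and for the GLI3-INHBA locus MFHAS1 (0.950), a locus with ADCY2 (0.938) and NEO1 (0.934). FSTL3 had ENSSSCG00000039551 (0.938), described as a ring finger protein gene and 10710 bases away, TMEM214 (0.936) and DPP9 (0.927). No locus was among the closest of more than 1 of the 5 genes.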

How the data were processed

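Ovary RNA-seq values of 5 control and 5 rpFSH pigs were used, with groups from the sample labels, which spell the treatment fpFSH. The authors trimmed reads with Cutadapt, mapped them to Sscrofa11.1 and assembled and quantified loci with StringTie and Ballgown. The submitters' processing notes name HISAT2 2.0, StringTie 1.3.0 and Bowtie 0.12.2. The methods describe rRNA removal, a strand-marking protocol and a HiSeq instrument, but the labels give poly(A) selection and a NovaSeq instrument. The deposited table gives FPKM and whole-number counts for each locus in each pig. How the authors counted is not given in the sources used here. The deposited FPKM has 0.0001 as its lowest value. All columns of per-sample values were used.

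Groups were compared with edgeR 4.0.16 (quasi-likelihood, TMM) in R 4.3.3 on the counts of protein-coding loci whose FPKM averaged 0.1 or more, without covariates. The study used Ballgown, and its model terms are not given in the sources used here. Benjamini-Hochberg adjustment ran over all 15170 loci, and an unadjusted P under 0.05 was reported separately. The study also asked for a log2 fold change beyond 1 in either direction, which was not applied here. limma 3.58.1 on log2 (FPKM + 1) and DESeq2 1.42.0 were among the alternatives. Ratios and, as an alternative added after seeing the data, single levels were compared by exact permutation over pigs (two-sided), and correlations with 100000 permutations (seed 1), in Python 3.11.15. The steps were tested on simulated data. Nothing says how the libraries were batched, and p-values rest on the spread between these pigs. The 5 genes and all lists were chosen with earlier results of these data known.

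Named genes are the 5 genes, the listed pathway genes with P under 0.05 or groups that do not overlap, the highest and lowest of each role, loci within 10000 bases, the 3 loci with the highest r to each gene, and marker lists. SMAD2, SMAD3, PCSK5, FSHR and FOXL2 values were added after they had been seen, as was the INHA to INHBB ratio. The granulosa list includes FOXL2, typed as a pseudogene in the table, and AMH, merged with SF3A2. 1 listed pathway gene is not reported here.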

Additional observations from a re-analysis of the deposited data

Results flagged for a closer look

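Among 16 groups of 5 pigs (the 5 genes, ACVR1B, TDGF1 and the INHA to INHBB ratio in each treatment group), 3 had a pig whose gap to its nearest neighbour, divided by the range of the group, was above Dixon's limit of 0.710. Chance gives about 1 such pig in 20 groups where values are normally distributed, and these values are skewed. On the log2 scale the 3 gaps, for FSTL3, the ratio and TDGF1, came to 0.706, 0.630 and 0.271 of the range, all under the limit. FSTL3 in control replicate 5 had an FPKM of 9.01, with the next control at 5.15 (0.783 of the range). That pig also had the highest smooth muscle and oviduct-type marker sums, 1789 and 118, whose part in the value was not tested. The INHA to INHBB ratio in rpFSH replicate 1 was 6.47, with the next pig at 1.95 (0.821 of the range), and this pig had a luteal marker sum of 1614. TDGF1 in rpFSH replicate 3 had an FPKM of 0.132, with the next at 0.0188 (0.858 of the range), a difference of 5 counts.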

How the results depend on the processing

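INHA stayed higher and INHBB lower in the rpFSH treatment group under all 24 alternatives, without passing the test in any, but INHA was 0.076 by limma-voom with sample weights and 0.090 without the 2 controls with high oviduct-type markers, where INHBB was -1.48. With each pig left out in turn, INHA lay between 0.36 and 1.67, INHBB between -1.25 and -0.21, the GLI3-INHBA locus between -0.27 and 0.72, FST between -0.83 and 0.074 and FSTL3 between 0.43 and 1.17, and the GLI3-INHBA locus was -0.22 without the 2 controls with high oviduct-type markers. FSTL3 had an unadjusted P above 0.05 with no scaling beyond total counts (0.90), all loci in the fit (0.93), limma with a pseudocount of 1, 0.1 or 0.01 (0.62, 0.69 and 0.70) and without the 3 pigs with high luteal markers (0.34). Loci with an unadjusted P under 0.05 numbered 375 at a mean FPKM of at least 1, which tests fewer loci, 460 by limma and 1099 by limma-voom with sample weights, and 560 to 798 with a pig left out. By adjusted p, DESeq2 gave 86, and 0 to 1 were found with a pig left out. Pathway genes with an unadjusted P under 0.05 numbered 1 with total counts only, with no filter, at a mean FPKM of at least 1, with all loci in the fit and without the oviduct-type controls, 0 by limma at each pseudocount, 4 without the luteal pigs and 0 to 5 with a pig left out. On log2 CPM, which is not per length, the differences in level turned for INHA and the GLI3-INHBA locus (-1.85), INHA and FST (0.079), INHBB and FST (0.073), and the GLI3-INHBA locus with INHBB (1.85), FST (1.93) and FSTL3 (3.45). With a pig left out, 1 to 4 of the 10 pairs passed, counting those with the GLI3-INHBA locus. INHA minus FST then lay between -0.51 and 0.0049 and INHA minus INHBB between -0.11 and 0.28. Of the relations between the genes, 5 passed by Pearson's r, 2 by Spearman's rho and 0 without the 2 farthest pigs, and of those with the granulosa level 4 and 0. The r of FSTL3 turned sign with INHA (-0.0245 without rpFSH replicate 1), and with the GLI3-INHBA locus (0.181) and the granulosa level (0.0755) without the 2 farthest pigs. Except where a pig or locus was left out, the cause was not tested. Alternatives on subsets of pigs with high luteal or oviduct-type markers, on rpFSH replicate 1 in the correlations and on the ratio were chosen after seeing the data.

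The labels number the pigs 1 to 5 in both groups, but these are different animals. The deviations of same-numbered pigs had r between -0.294 and -0.0266 (pooled -0.137), so the numbers were not taken to pair them. With the replicate number as a block, 370 loci had an unadjusted P under 0.05, FSTL3 was 0.75 with an unadjusted P above 0.05, and 0 pathway genes passed.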

Other observations

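FOXL2, a transcription factor of granulosa cells and a SMAD partner in the control of follistatin, stands at a locus that the table types as a pseudogene and was not tested. Its FPKM values were 2.69, 2.95, 0.543, 3.62 and 0.183 in control replicates 1 to 5 and 0.566, 4.39, 1.92, 0.396 and 2.63 in rpFSH replicates 1 to 5. Both groups held values under 1 and above 2. Control replicate 2, with the lowest INHA and INHBB, was among the higher pigs for FOXL2.

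Theca markers (2 found of 3) and oocyte markers (7 of 7) were the other follicular lists. The theca sums were 132, 5.81, 222, 182 and 44.1 FPKM in control replicates 1 to 5 and 24.6, 124, 3.47, 44.5 and 77.4 in rpFSH replicates 1 to 5. The 2 lowest were control replicate 2 and rpFSH replicate 3, which also had the lowest INHA and INHBB. The oocyte sums went from 4.26 to 22.1 in the control group and from 10.4 to 19.3 in the rpFSH treatment group, with control replicate 2 the lowest. Stroma sums went from 195 to 1031 and from 346 to 1320, endothelium from 33.7 to 94.6 and from 52.7 to 87.1, and blood and immune cells from 43.7 to 152 and from 48.9 to 91.8. The CD68 and OVGP1 loci among these lists are merged with neighbouring genes.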
